A study of Homo sapiens with 4 samples.

Results

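The genes described here are 51 components of the DNA replication machinery and of deoxynucleotide supply, chosen by symbol from the 19192 genes counted in each library. They cover origin recognition and licensing, the MCM2-7 helicase and its activators, the replicative polymerases, the sliding clamp and its loader, fragment joining, single-strand binding, deoxynucleotide synthesis and chromatin assembly behind the fork. The libraries came from SW480, an established human colorectal adenocarcinoma line, either wild type or labelled IMP1-/-. The gene IGF2BP1 encodes IMP1, a protein that binds mRNA, and the design addresses what its loss does to mRNA abundance and to ribosome occupancy. Total RNA and ribosome-protected fragments (RPF, the short pieces of mRNA that a ribosome shields from nuclease) were sequenced from each genotype. Each of the 4 groups had 1 library made from 3 pooled plates, so no difference below has a replicate check, no p-value is given, and genotype cannot be told apart from clone or culture. Whether the IMP1-/- cells are 1 clone is not given in the sources used here.

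Library totals were 5551479 counts for wild-type RNA, 4932388 for knockout-labelled RNA, 3782874 for wild-type RPF and 3778316 for knockout-labelled RPF. IGF2BP1 itself had 598 and 571 RNA reads and 285 and 149 footprints, wild type first, so its RNA did not show the label and the second genotype is written as knockout-labelled throughout. A label of the wild-type RNA library gives its line as SW840 where all other labels give SW480. This conflict touches each RNA change below and each ratio of footprints to RNA that uses this library, but no RPF change. Of 12 markers of colon epithelium, EPCAM, KRT8, KRT18 and KRT19 were abundant in all 4 libraries, KRT20 was at 0 in all 4, and CDH17, CDX1, GPA33 and CEACAM5 had at most 6 reads in any library. Between the genotypes, VIL1 (160 and 2 RNA reads), CDX2 (268 and 103), KRT8 (16173 and 9172) and KRT18 (26170 and 15373) were called lower in RNA, by the rule given with the first counts. CDH1, which encodes E-cadherin, was called higher in both kinds, with 83 and 286 RNA reads and 88 and 275 footprints. VIL1 had 335 and 0 footprints and was the only marker of the list called lower in RPF. The 8 fibroblast markers summed to between 0.529 and 6.28 CPM (counts scaled to the library total) and the 4 endothelial markers to between 1.06 and 12.4 CPM. The 7 leukocyte markers summed to 8.47 and 44.8 CPM in RNA and 2.91 and 52.4 CPM in RPF, wild type first, with PTPRC and CD3E at 0 in all libraries and CD68 alone detected in the knockout-labelled ones. The part of these marker differences in the results was not tested.

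DNA replication begins when the origin recognition complex (ORC), with CDC6 and CDT1, loads the ring-shaped MCM2-7 helicase onto DNA in G1. The kinases CDC7 and CDK2, with TOPBP1, MCM10, CDC45 and the GINS complex, turn the loaded ring into a moving fork in S phase. DNA polymerase alpha-primase starts each strand, polymerases epsilon and delta extend the strands on the PCNA clamp, FEN1 and LIG1 join the lagging-strand pieces, and ribonucleotide reductase and thymidylate synthase feed the fork. Many of these genes are transcribed at the G1 to S transition under E2F transcription factors, and cycling tumour lines express them at high levels.

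Letters of the E2F type were common around the start sites of these genes. Windows of 250 bases before to 50 bases after a transcription start (RefSeq, GRCh38.p14) were held for 45 of the 51 genes. The letters searched were TTTCCCGC, TTTGGCGC, TTTGCCGC and TTTCGCGC on both strands. They occurred in 23 of the 45 windows (51.1%), against 613 of 13979 windows (4.39%) over all genes with a window. Matches that overlap on opposite strands were each counted, which gave 31 matches in the 23 windows. Their first bases lay between 187 bases before the start and 27 bases after it, with a median of 35 bases before. In comparison, CCAAT on either strand was present in 24 of the 45 windows (53.3%) and in 36.5% of all windows. GGGCGG was present in 34 of 45 (75.6%) and in 60.5%. A match describes letters only and is not evidence that a factor binds there.

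The stretches that follow were taken from genes with a match. They cover genes called lower in RNA and, in CDC7, a gene that was not. Each line is 30 bases, read 5′ to 3′ along the gene's own strand, and capitals mark the E2F-type letters. GCGGGAAA, GCGCCAAA and GCGCGAAA are the searched letters read on the other strand. TYMS and LIG1 had the largest RNA differences, CDT1, PCNA, POLE and MCM7 were lower in RNA and RPF, and CDC7 was not lower in RNA. Relative to the deposited transcripts, those of CDC7 and PCNA lie 45 and 36 bases upstream of the start, those of TYMS and POLE cross it, and those of LIG1, CDT1 and MCM7 lie in the 5′ untranslated part of exon 1.
TYMS, chr18:657603-657632, plus strand: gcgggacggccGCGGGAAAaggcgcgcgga
LIG1, chr19:48170440-48170469, minus strand: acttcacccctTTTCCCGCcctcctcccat
CDT1, chr16:88803743-88803772, plus strand: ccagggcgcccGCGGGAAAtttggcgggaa
PCNA, chr20:5126663-5126692, minus strand: cagcgtcagggGCGGGAAAaggcgtgcgtt
POLE, chr12:132687342-132687371, minus strand: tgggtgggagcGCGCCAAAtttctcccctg
MCM7, chr7:100101388-100101417, minus strand: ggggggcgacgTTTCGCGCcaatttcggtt
CDC7, chr1:91501033-91501062, plus strand: gtgcagttcctTTTCCCGCcccccttcgga

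Longer stretches of 120 bases, ending upstream of both the RefSeq start and the start of the deposited transcript, are shown for MCM6, whose window held the most matches (4), and for genes without one. In MCM6 the capitals mark a pair of overlapping E2F-type matches, 1 on each strand. RRM2, ranked after MCM5 by RNA difference, had no E2F-type match, and in its line the capitals mark 3 CCAAT sequences. RPA1, RFC1 and ORC4, the genes with the RNA change nearest to 0, had none of the E2F-type letters and are printed without capitals. CCAAT on either strand is also present in the lines of MCM6 (2) and RPA1 (1), where it is left in lower case.
MCM6, chr2:135876444-135876563, minus strand: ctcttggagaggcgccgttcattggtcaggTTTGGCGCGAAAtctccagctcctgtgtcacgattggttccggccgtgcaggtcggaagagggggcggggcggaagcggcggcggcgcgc
RRM2, chr2:10122610-10122729, plus strand: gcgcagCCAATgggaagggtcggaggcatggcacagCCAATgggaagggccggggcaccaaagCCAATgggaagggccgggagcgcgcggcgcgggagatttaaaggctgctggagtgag
RPA1, chr17:1829864-1829983, plus strand: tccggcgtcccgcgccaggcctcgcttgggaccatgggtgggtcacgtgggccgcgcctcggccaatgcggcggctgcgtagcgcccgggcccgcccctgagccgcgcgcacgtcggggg
RFC1, chr4:39366363-39366482, minus strand: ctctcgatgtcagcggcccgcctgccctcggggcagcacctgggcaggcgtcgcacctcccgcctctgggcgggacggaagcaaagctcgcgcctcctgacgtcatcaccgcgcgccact
ORC4, chr2:148020748-148020867, minus strand: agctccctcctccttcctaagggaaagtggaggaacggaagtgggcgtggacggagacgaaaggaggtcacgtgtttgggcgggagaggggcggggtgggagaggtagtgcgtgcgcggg

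Most of the 51 genes had less RNA and fewer footprints in the knockout-labelled libraries, and none was called higher in either. A gene was called lower or higher when the ratio of the knockout-labelled to the wild-type library, after scaling with edgeR's TMM factors, was at least 1.5-fold and its 95% counting interval excluded no change. All 51 genes had at least 50 reads over both libraries of each kind, the minimum for entering a comparison. In RNA 35 of 51 were lower and 0 higher, against backgrounds of 17.8% lower and 16.2% higher among 10875 genes. In RPF 36 of 51 were lower and 0 higher, against 20.1% and 19.0% of 9794 genes. At a limit of 2-fold, 23 were lower in RPF, against 9.87% of all genes measured. The median level was 52.3% of wild type in RNA (log2 change −0.93) and 51.3% in RPF (−0.96), while the medians over all genes were −0.01 and −0.0007. Because these are bulk libraries, fewer cells in S phase and less of these RNAs per cell cannot be told apart.

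The 51 genes together took 0.446% of wild-type RNA counts (24760 reads, exact 95% binomial interval 0.440% to 0.452%) and 0.228% of knockout-labelled RNA counts (11229 reads, 0.223% to 0.232%). In RPF they took 0.794% (30053 footprints, 0.786% to 0.803%) and 0.384% (14499 footprints, 0.378% to 0.390%). These intervals cover counting error only. Single genes ranged from 50 RNA reads (GINS3) to 2914 (MCM7) in wild type, and among knockout-labelled reads from 16 (LIG1) to 946 (MCM7). The RNA change was below 0 for 50 of the 51 genes and the RPF change for 48.

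**Figure D1:**
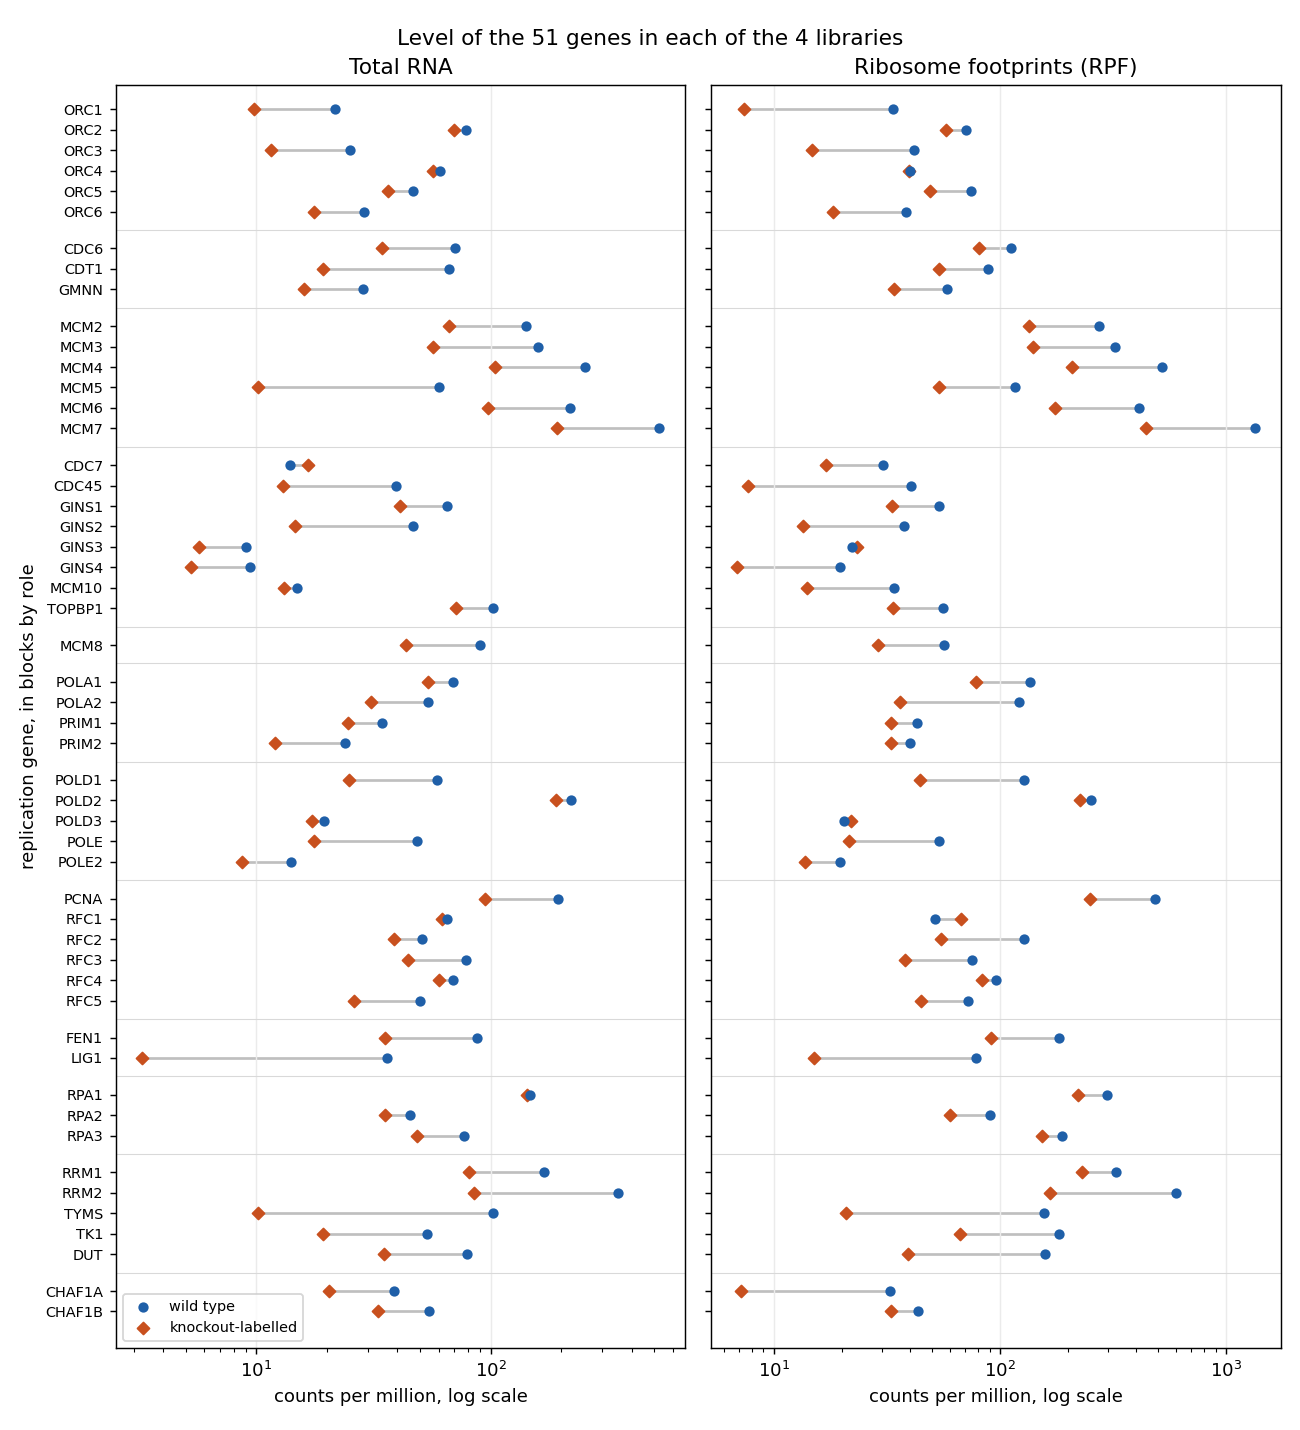
Level of each of the 51 replication genes in the 4 libraries, in CPM on a log axis, with total RNA on the left and ribosome footprints on the right. Circles are wild type and diamonds knockout-labelled, 1 library each with no error bar, and the blocks follow the roles in the text; the diamond lies left of the circle for most genes, farthest for LIG1 and TYMS in RNA.

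All 5 nucleotide supply genes were lower in RNA and 4 of 5 in RPF, beside 17.8% and 20.1% of all genes. TYMS had the largest RPF difference of the 51 genes. Thymidylate synthase TYMS, which makes the thymine nucleotide dTMP (ENST00000323274, chromosome 18, 657604 to 673578, plus strand, GRCh38), had 566 wild-type and 50 knockout-labelled RNA reads, 10.1-fold lower (log2 −3.34, 95% interval −3.80 to −2.93). Its footprints went from 594 to 79, 7.48-fold lower (−2.90, −3.27 to −2.57). The exons of TYMS overlap those of ENOSF1 on the opposite strand over 58.2% of its transcript, and strand use in counting is not given in the sources used here. ENOSF1 had 47 and 19 RNA reads and 44 and 25 footprints.

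Ribonucleotide reductase makes deoxynucleotides from a large subunit, RRM1, and a small radical-bearing subunit, RRM2. RRM2 (chromosome 2, 10122730 to 10131418) went from 1936 to 418 RNA reads (−2.06, −2.22 to −1.91) and from 2269 to 625 footprints (−1.86, −1.99 to −1.73). RRM1 (chromosome 11, 4094809 to 4138876) went from 938 to 397 RNA reads (−1.09, −1.26 to −0.92) but only from 1232 to 873 footprints, a change of −0.50 (−0.62 to −0.37) that was not called. Per kilobase of coding sequence, RRM2 footprints were 3.75 times those of RRM1 in wild type (514 and 137 CPM) and 1.46 times in the knockout-labelled library (142 and 97.2 CPM). RRM2B, the alternative small subunit known as a p53 target, is not among the 51 genes. It had 324 and 320 RNA reads while its footprints went from 80 to 182 (1.18, 0.80 to 1.58).

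Thymidine kinase TK1, which salvages thymidine, had 298 and 95 RNA reads and 690 and 251 footprints, with changes of −1.49 (−1.85 to −1.16) and −1.46 (−1.67 to −1.25). The dUTPase gene DUT, whose product removes dUTP, had 439 and 173 RNA reads (−1.19, −1.45 to −0.94) and 596 and 148 footprints (−2.01, −2.28 to −1.75), so its footprints were lower by more than its RNA. Exons of AC007240.1, a protein-coding gene annotated on the same strand, overlap 32.9% of the RRM2 transcript, so RRM2 reads may be split. Processed copies in the genome share sequence with DUT (8 named pseudogenes), RRM2 (3) and TYMS (2), which makes their counts less certain. The same limit holds for PCNA (3), RPA2 (3), POLD2 (1), RFC3 (1), RFC5 (1) and FEN1 (1), described below.

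All 6 subunits of the MCM2-7 helicase, the ring that unwinds DNA at the fork, were lower in RNA and in RPF. Over all genes, 17.8% were lower in RNA and 20.1% in RPF. MCM7 was the most abundant of the 51 genes by reads in every library, with 2914 and 946 RNA reads (−1.47, −1.58 to −1.37) and 5043 and 1662 footprints (−1.60, −1.68 to −1.52). MCM4 had 1396 and 514 RNA reads and 1971 and 789 footprints, and MCM6 1205 and 479 RNA reads and 1555 and 660 footprints. MCM2 was at 46.1% of wild type in RNA and 48.9% in RPF, and MCM3 at 35.2% and 43.5%. Footprint changes of the 6 subunits lay between −1.60 (MCM7) and −1.03 (MCM2), and RNA changes between −2.58 (MCM5) and −1.12 (MCM2). The wider RNA range rests on MCM5 alone. Without it, RNA changes ran from −1.51 (MCM3) to −1.12, inside the footprint range.

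MCM5 (chromosome 22, 35400063 to 35425430, plus strand) stood apart from the other subunits in RNA and not in footprints. It had 335 wild-type and 50 knockout-labelled RNA reads, 5.98-fold lower (−2.58, −3.05 to −2.16). Footprints went from 440 to 203, 2.17-fold lower (−1.11, −1.36 to −0.87), within the range of the other subunits. MCM5 also had the lowest density of the ring in each of the 4 libraries. Footprints per kilobase of coding sequence were 52.8 CPM for MCM5 and 618 CPM for MCM7 in wild type, a ratio of 11.7, and 24.4 and 204 CPM in the knockout-labelled library, a ratio of 8.36. The region of each transcript that the authors counted is not given, so these densities assume reads within the coding sequence. Exons of MCM7 overlap those of AP4M1 on the opposite strand over 13.3% of its transcript, and AP4M1 had 138 and 53 footprints.

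MCM8, a relative of the ring subunits that acts mainly in homologous recombination, had 501 and 214 RNA reads (−1.07, −1.31 to −0.84) and 213 and 109 footprints (−0.96, −1.31 to −0.63).

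**Figure D2:**
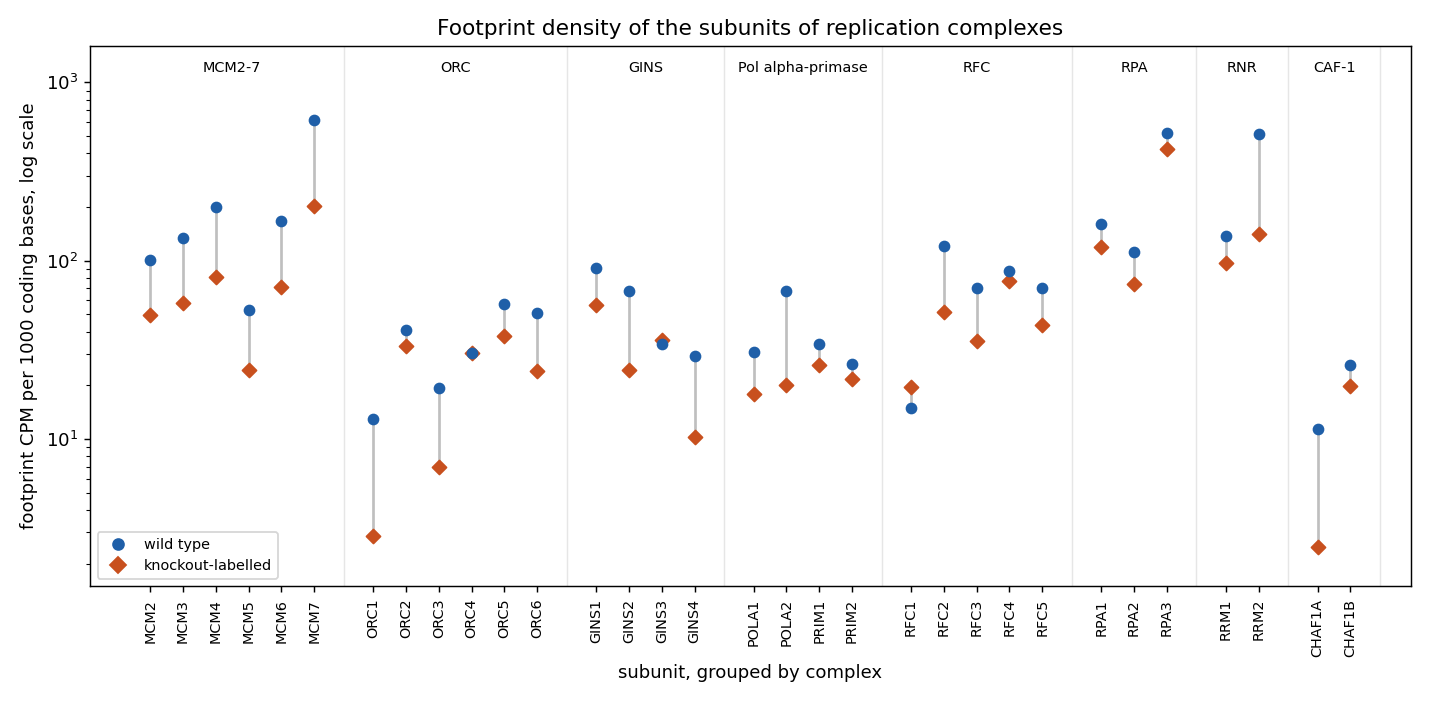
Footprint CPM per kilobase of coding sequence, on a log axis, for the subunits of 8 replication complexes in the wild-type (circles) and knockout-labelled (diamonds) RPF libraries, 1 library each with no error bar. In MCM2-7 all 6 diamonds lie below their circles, from 24.4 for MCM5 to 204 for MCM7, whereas in ORC the points of ORC4 coincide and those of ORC1 and ORC3 lie far apart.

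Origin recognition was split among its subunits. ORC1, the subunit whose protein level rises and falls with the cell cycle in human cells, had 120 and 48 RNA reads (−1.16, −1.69 to −0.68) and 127 and 28 footprints (−2.16, −2.83 to −1.58), or 22.3% of wild-type footprints. ORC3 had 140 and 57 RNA reads and 157 and 56 footprints (−1.14 and −1.48), and ORC6 160 and 87 and 145 and 69 (−0.72 and −1.07). ORC2 and ORC4 were not called in either measurement. ORC4 had 337 and 280 RNA reads and 151 and 150 footprints, with an RPF change of −0.01 (−0.35 to 0.33). ORC5 was called in RPF only, at −0.59 (−0.87 to −0.32), just past the 1.5-fold limit. The density of ORC3, a core subunit, relative to ORC5 went from 19.4 and 56.9 CPM per kilobase of coding sequence to 6.94 and 37.7.

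Of the licensing factors, CDT1, which brings the helicase to ORC (chromosome 16, 88803213 to 88809258, plus strand), had 367 and 95 RNA reads (−1.79, −2.14 to −1.47) and 336 and 203 footprints (−0.73, −0.99 to −0.47). CDC6, the ATPase that works with it, had 390 and 169 RNA reads (−1.05, −1.32 to −0.79) and 425 and 305 footprints (−0.48, −0.70 to −0.26), the latter not called. Geminin (GMNN), the inhibitor that binds CDT1 after S phase has begun, had 158 and 79 RNA reads and 220 and 129 footprints, with changes of −0.84 and −0.77. For CDT1 and CDC6 the RNA difference was the larger one, and for GMNN both were alike within their intervals.

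Of the 8 helicase activation genes, 4 were lower in RNA and 7 in RPF, beside 17.8% and 20.1% of all genes. CDC45, which joins MCM2-7 and GINS in the active helicase, had 219 and 64 RNA reads (−1.62, −2.05 to −1.22) and 153 and 29 footprints (−2.38, −3.03 to −1.82). CDC7, the kinase that phosphorylates the loaded ring, was the 1 gene of the 51 with an RNA change above 0, with 77 and 82 reads (0.24, −0.22 to 0.71), but its footprints went from 115 to 64 (−0.84, −1.31 to −0.39). DBF4, the activating subunit of CDC7, had 453 and 283 RNA reads and 136 and 99 footprints and was called in neither. MCM10, a scaffold needed for fork start, had 83 and 65 RNA reads (−0.20, −0.69 to 0.28) and 129 and 53 footprints (−1.28, −1.77 to −0.81).

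Among the 4 GINS subunits, GINS2 had 259 and 72 RNA reads and 142 and 51 footprints (−1.69 and −1.47), GINS4 52 and 26 and 74 and 26 (−0.84 and −1.49), and GINS1 361 and 203 and 203 and 126 (−0.68 and −0.69). GINS3 was called in neither, with 50 and 28 RNA reads (−0.67, −1.41 to 0.01) and 84 and 88 footprints (0.07, −0.38 to 0.52). GINS3 and GINS4 had the fewest RNA reads of the 51 genes in wild type, and their intervals are wide. TOPBP1, the scaffold that recruits GINS, was called in RPF only (−0.74, −1.07 to −0.42). Its RNA change of −0.54 (−0.74 to −0.35) fell just short of the 1.5-fold limit.

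The catalytic subunits of polymerases delta and epsilon were lower in both measurements, and several of their accessory subunits were not called. POLD1, the catalytic subunit of polymerase delta, had 327 and 123 RNA reads and 483 and 168 footprints (−1.26 and −1.52). POLE, the catalytic subunit of polymerase epsilon, had 269 and 87 RNA reads and 203 and 81 footprints (−1.47 and −1.32). Accessory subunits POLD2 (1221 and 941 RNA reads, 956 and 853 footprints) and POLD3 (108 and 85, 77 and 83) were called in neither, and POLE2 had −0.70 in RNA, called lower, and −0.51 in RPF, not called. The remaining accessory subunits POLD4, POLE3 and POLE4, not among the 51 genes, were called in neither.

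In polymerase alpha-primase the accessory subunit POLA2 had 301 and 152 RNA reads (−0.83, −1.13 to −0.55) and 458 and 136 footprints (−1.75, −2.04 to −1.47). POLA1, the catalytic subunit, had an RNA change of −0.38 (−0.61 to −0.15), not called, and went from 513 to 295 footprints (−0.80, −1.01 to −0.59). The primase subunit PRIM2 showed the reverse, with 133 and 59 RNA reads (−1.01, −1.49 to −0.57) and 152 and 125 footprints (−0.28, −0.64 to 0.07). PRIM1, which synthesises the RNA primer, was called in neither (−0.51 and −0.39). POLA2 footprint density, the highest of the 4 in wild type at 67.5 CPM per kilobase of coding sequence, was 20.1 in the knockout-labelled library, next to 17.8 for POLA1. Exons of AP000944.2, a protein-coding gene annotated on the same strand, overlap 53.7% of the POLA2 transcript, and those of AC117378.1 overlap 26.0% of PRIM1 in the same way, so reads of both may be split. For POLD1 such an overlap, with AC020909.1, covers 12.4%.

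PCNA, the clamp that holds polymerases on DNA (chromosome 20, 5114953 to 5126626, minus strand), had 1073 and 465 RNA reads (−1.05, −1.22 to −0.90) and 1839 and 945 footprints (−0.96, −1.08 to −0.85). In wild type it had the highest footprint density of the 51 genes, 621 CPM per kilobase of coding sequence, followed by MCM7 at 618, RPA3 at 518 and RRM2 at 514. In the knockout-labelled library RPA3 was first at 423 and PCNA second at 319. The clamp loader (RFC) has a large subunit, RFC1, and 4 small ones. RFC1 was not lower in either measurement, with 361 and 305 RNA reads (−0.09, −0.32 to 0.13) and 195 and 255 footprints (0.39, 0.11 to 0.66). RFC2 had 283 and 191 RNA reads (−0.41, −0.69 to −0.15) and 484 and 208 footprints (−1.22, −1.46 to −0.98), RFC3 and RFC5 were called lower in both, and RFC4 in neither. Footprint density across the 5 RFC subunits spanned 8.04-fold in wild type, from RFC1 to RFC2, and 3.92-fold in the knockout-labelled library, from RFC1 to RFC4.

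LIG1, the ligase that seals lagging-strand pieces (chromosome 19, 48115445 to 48170603, minus strand), had 200 wild-type and 16 knockout-labelled RNA reads, 10.9-fold lower (−3.45, −4.33 to −2.76). Its footprints went from 297 to 57, 5.18-fold lower (−2.37, −2.82 to −1.97). FEN1, the nuclease that trims the flap before sealing, had 487 and 175 RNA reads (−1.32, −1.58 to −1.07) and 688 and 346 footprints (−0.99, −1.18 to −0.80). In contrast, replication protein A, which coats single-stranded DNA in replication and repair alike, had smaller changes. RPA1 had 820 and 704 RNA reads (−0.07, −0.22 to 0.08) and 1125 and 839 footprints (−0.42, −0.55 to −0.29), called in neither. RPA2 was called in RPF only (−0.60, −0.85 to −0.35) and RPA3 in RNA only (−0.68, −0.91 to −0.45).

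Chromatin assembly factor 1 places histones on new DNA through CHAF1A and CHAF1B. CHAF1A had 215 and 101 RNA reads (−0.93, −1.29 to −0.59) and 123 and 27 footprints (−2.17, −2.85 to −1.58), which left 22.3% of wild-type footprints. CHAF1B had 303 and 163 RNA reads (−0.74, −1.03 to −0.46) and 165 and 125 footprints (−0.40, −0.75 to −0.06), not called in RPF. CHAF1B footprint density was 2.29 times that of CHAF1A in wild type and 7.92 times in the knockout-labelled library.

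RNA and footprints were lower together in 29 of the 51 genes, against 9.53% of the 9598 genes measured in both. A further 6 were called in RNA only (CDC6, CHAF1B, POLE2, PRIM2, RPA3 and RRM1), where the background was 7.39%. In RPF only, 7 were called (CDC7, MCM10, ORC5, POLA1, RFC2, RPA2 and TOPBP1), where it was 9.91%, so both of these shares were near the background. The other 9 were called in neither, against 47.1% of all genes, and these were GINS3, ORC2, ORC4, POLD2, POLD3, PRIM1, RFC1, RFC4 and RPA1. Across the 51 genes the RNA and RPF changes had a Pearson's r of 0.69 and a Spearman's rho of 0.69, beside 0.63 and 0.54 over all 9598 genes measured in both. These values describe the libraries, since genes are not independent replicates.

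**Figure D3:**
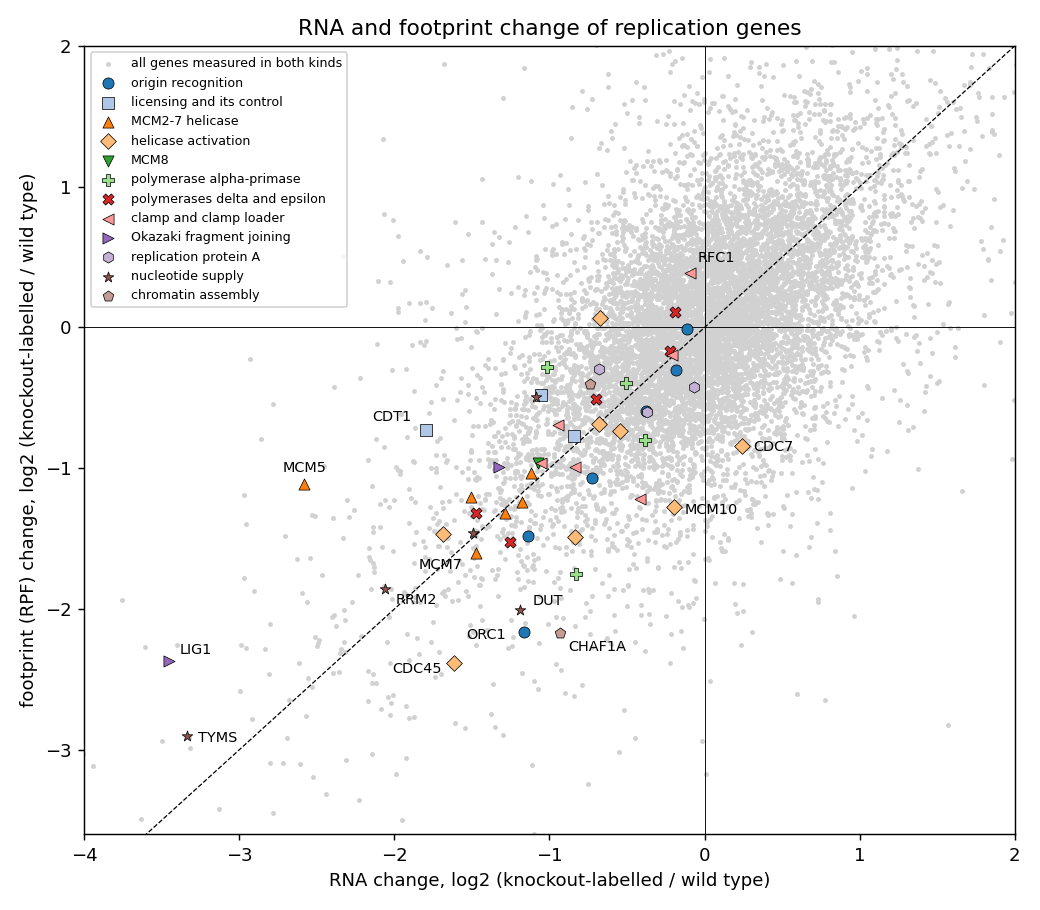
RNA change (x axis) against RPF change (y axis), both log2 of knockout-labelled over wild type, for the 51 replication genes by role, over all genes measured in both kinds of library in grey (genes beyond the axes are not drawn). The dashed line marks equal change; TYMS and LIG1 lie at the lower left, MCM5 and CDT1 above the line, and CHAF1A, CDC7 and MCM10 below it.

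Translational efficiency (TE), the ratio of footprints to RNA, showed no shift of its median in these genes. Its change was computed as RPF change minus RNA change. The median TE change of the 51 genes was 0.06, beside 0.03 over all genes measured. TE was lower for 8 of the 51 genes and higher for 5, while 13.9% of 9598 genes were lower and 15.7% higher, so these shares were close to the background. With at least 200 reads required, 3 of 39 genes had lower TE, against 9.76% of all genes that met this minimum. An RNA change enters TE with its sign turned, so counting error in RNA moves both in opposite directions.

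The genes with lower TE were CHAF1A (−1.23, −1.92 to −0.55), CDC7 (−1.08, −1.71 to −0.46), MCM10 (−1.08, −1.73 to −0.42), ORC1 (50.0% of wild type, −1.76 to −0.24), POLA2 (−0.92, −1.31 to −0.52), DUT (−0.82, −1.18 to −0.45), RFC2 (−0.80, −1.16 to −0.45) and CDC45 (−0.76, −1.46 to −0.07). Of these, CDC7, MCM10 and CDC45 act in helicase activation, where the other 5 of the 8 genes were called in neither direction. Among those 5, GINS2 (0.22) and GINS3 (0.74) had TE changes above 0. CDC7 and MCM10 had too few RNA reads and footprints, and CDC45 too few footprints, to be measured at the higher read minimum stated above. ORC1 also fell short of it in both kinds, and CHAF1A in footprints. POLA2, DUT and RFC2 were the genes left with lower TE. Whether lower TE was more frequent in helicase activation than in other roles was not tested. Those with higher TE were MCM5 (1.47, 0.98 to 1.96), LIG1 (1.08, 0.25 to 1.91), CDT1 (1.07, 0.66 to 1.48), PRIM2 (0.73, 0.18 to 1.29) and RRM1 (0.59, 0.38 to 0.80). Each of these 5 was called lower in RNA. The remaining subunits of the helicase ring had TE changes between −0.13 (MCM7) and 0.30 (MCM3).

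**Figure D4:**
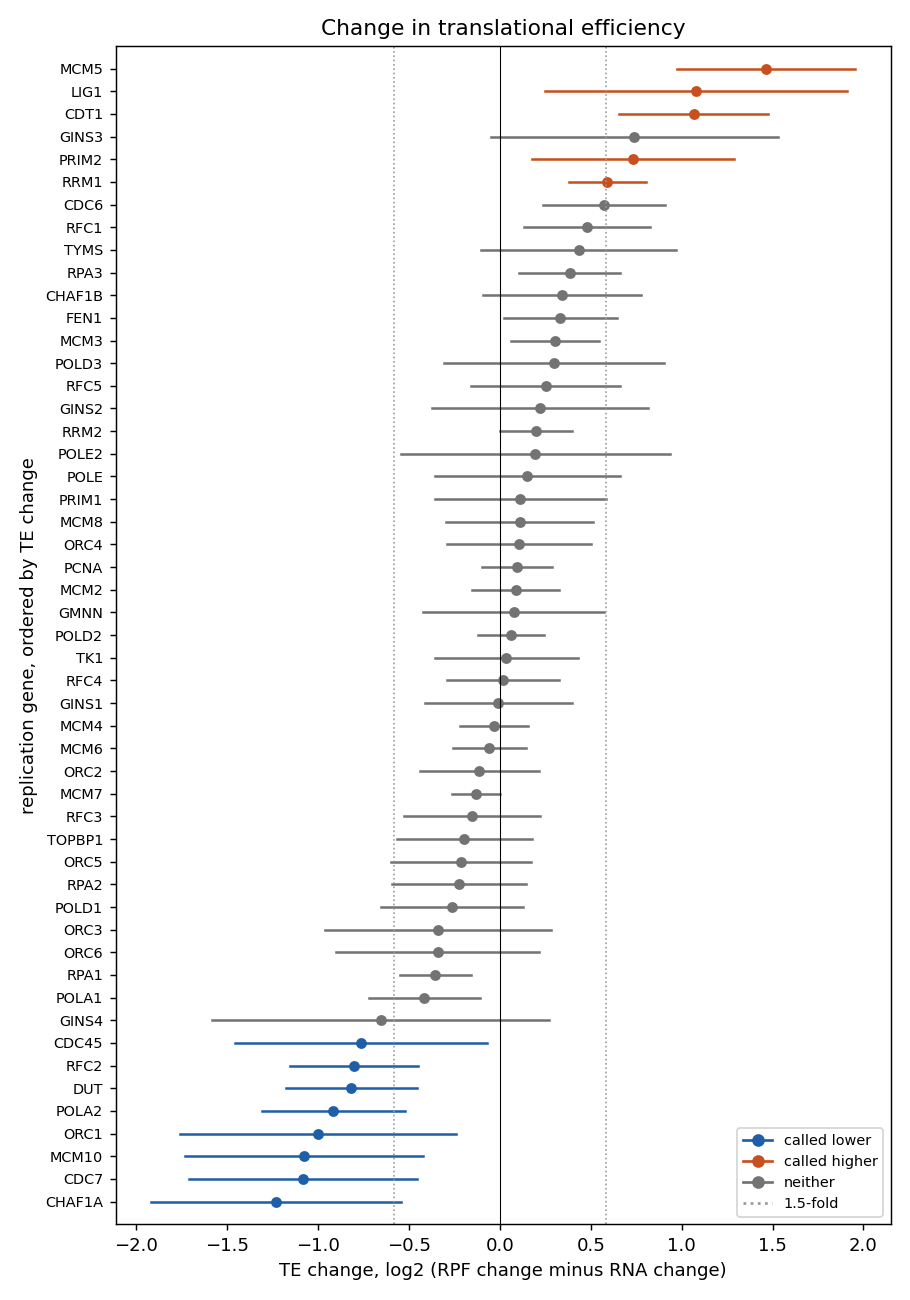
TE change (RPF change minus RNA change, log2) of each of the 51 replication genes in order, as points with 95% counting intervals as bars. Dotted lines mark 1.5-fold; the 8 genes called lower run from CDC45 to CHAF1A and the 5 called higher from RRM1 to MCM5.

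The ratio of footprints to RNA was above that of the median gene for most of these genes before any comparison of genotypes. In wild type 39 of the 51 genes (76.5%) lay above the median of the genes measured, and 26 were in the top 25% while 2 were in the bottom 25%. TK1 had the highest ratio (log2 1.65 above the median gene), followed by MCM7 (1.23) and PCNA (1.22), and TOPBP1 the lowest (−0.98). In the knockout-labelled cells 36 of 51 were above the median, with MCM5 highest at 2.26 and CHAF1A lowest at −1.63.

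Genes whose start windows held E2F-type letters had a median RNA change of −1.07, with 19 of 23 called lower, and genes whose windows lacked them −0.73, with 12 of 22. In RPF the medians were −0.99 (20 of 23 lower) and −0.64 (12 of 22 lower). The shares of all genes called lower were 17.8% in RNA and 20.1% in RPF, below those of both groups. Genes without the letters were therefore also called lower more often than genes in general. How often genes outside the replication list with these letters were called lower was not tested. Several genes with large RNA differences had no match, among them RRM2, CDC45, TK1, FEN1 and POLD1. ORC1 and CHAF1A, with large RPF differences, had none either. CDC7, GINS3, POLA1 and TOPBP1 had matches and were not called in RNA. The genes with no window held were GINS4, MCM4, MCM5, POLD3, RPA2 and RPA3. The groups overlap over most of their range, and the difference between them was not tested.

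**Figure D5:**
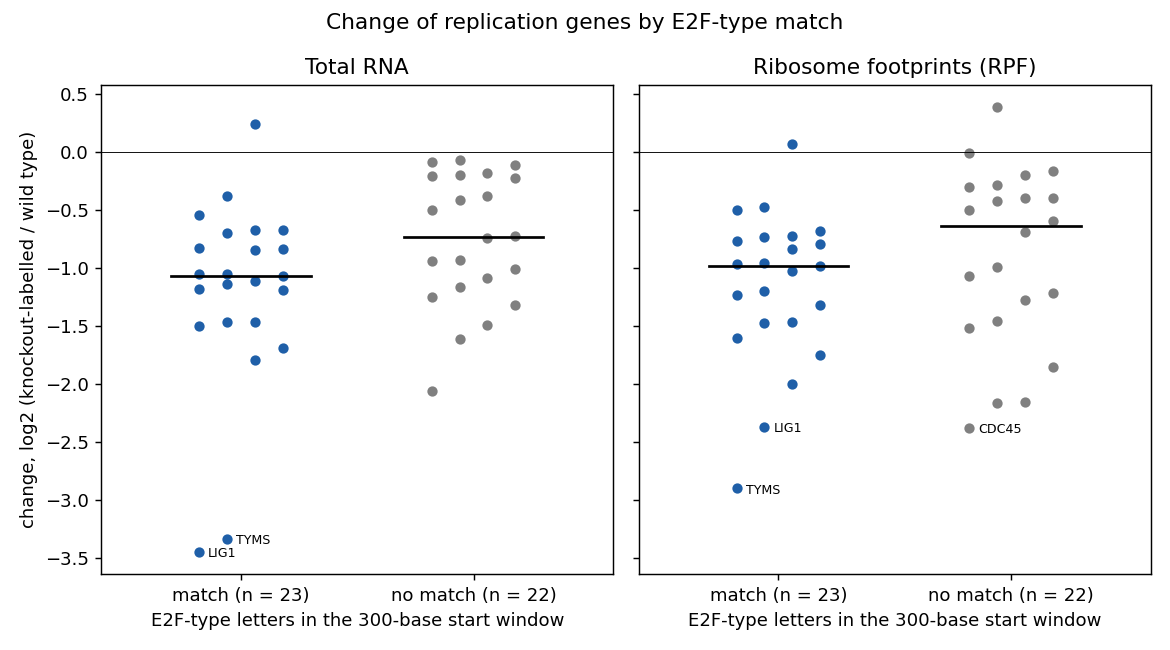
RNA change (left) and RPF change (right), log2 of knockout-labelled over wild type, of the 23 replication genes with E2F-type letters in the 300-base start window and the 22 without. Each point is a gene and each bar the median; the medians are −1.07 and −0.73 in RNA and −0.99 and −0.64 in RPF, and the points of both groups overlap.

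Genes outside the 51 that act in the same processes were lower in part. Among further fork, origin and checkpoint genes, 15 of 37 were lower in RNA and 15 of 36 in RPF. In each, 1 was higher (ETAA1 in RNA and RAD1 in RPF). Over all genes, 17.8% were lower and 16.2% higher in RNA, and 20.1% and 19.0% in RPF. Among the lower ones in RNA were TOP2A, the topoisomerase that untangles new DNA (2478 and 775 reads), DNA2, a flap nuclease (118 and 28), CLSPN, the checkpoint mediator claspin (149 and 35), and DBF4B (58 and 8). Of 18 further nucleotide synthesis genes, 7 were lower and 0 higher in RNA, and 5 were lower and 1 higher (RRM2B) in RPF, beside the 17.8% and 20.1% of all genes called lower. The list is small, and 5 of 18 is near the RPF background. Thymidylate kinase DTYMK, the next enzyme after TYMS and TK1, had 244 and 91 RNA reads and 251 and 91 footprints, and DCK and CAD were also lower in RNA. Purine synthesis genes GART, PPAT and IMPDH2 were called in neither measurement.

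Of 9 genes that act on chromatin behind the fork, 6 were lower in RNA and 6 in RPF, beside 17.8% and 20.1% of all genes. The largest RNA differences were those of the helicase-like HELLS (420 and 109 RNA reads) and the histone chaperone NASP (438 and 171). Next came UHRF1 (649 and 279), which reads hemimethylated DNA, and the histone chaperone ASF1B (319 and 133). Its paralog ASF1A had 141 and 186 RNA reads and was higher in RPF (121 and 188 footprints, 0.63, 0.30 to 0.98). For comparison, a list of 25 mitotic genes had 22 lower in RNA and 22 in RPF, beside the same 17.8% and 20.1%. Their median changes were −1.26 and −1.27. No test of the difference between these lists and the 51 genes was made.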

How the data were processed

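The authors deposited raw counts, whole numbers without normalization, for 1 transcript of each gene. Per the labels' protocols, 3 plates were pooled, rRNA was depleted, and size selection kept footprints from 18 to 34 nt and RNA pieces from 18 to 50 nt. Per the submitters' processing notes, cutadapt 1.10, Bowtie 1.1.2, HISAT2 2.1.0 and GRCh38 were used. Which annotation and transcript region were counted, whether strand was used and whether molecular identifiers were collapsed is not given in the sources used here.

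All 51 transcripts were found in GENCODE release 29 (GRCh38), the source of coordinates, overlaps and coding lengths. Libraries of 1 kind were scaled by TMM (edgeR 4.0.16, R 4.3.3). Changes are log2 count ratios with a prior count of 0.5. RNA and RPF intervals are exact conditional (Clopper-Pearson) 95% intervals, and TE intervals use the sum of reciprocal counts. Reads after PCR are not molecules, so intervals cover counting error only. TE has 0 residual degrees of freedom. Calls were also run on counts simulated with counting error alone, which cannot show how calls vary between libraries of 1 genotype. Intervals came from SciPy 1.17.1 and NumPy 2.4.6, tables from pandas 2.3.3 and plots from Matplotlib 3.10.9, under Python 3.11.15.

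The members, lists and tests were chosen with earlier results of these data known. All 51 members could be named. Of the other lists, up to 4 genes a list were to be named by the bound of the RNA interval nearest to no change. ASF1A, DBF4, ETAA1, GART, IMPDH2, POLD4, POLE3, POLE4, PPAT, RAD1 and RRM2B were added after their values were seen. The promoter stretches of MCM6, CDT1, PCNA, POLE, MCM7 and CDC7 were added in the same way. The window nearest to the deposited transcript's start was used, within 100 bases of it for 37 of 45 members and at most 576 bases away. PCLAF was matched as KIAA0101, and PAICS was not analysed here. Protein sequences were not used here. Some genes of the lists are not reported here. Alternatives covered scaling (including DESeq2 1.42.0 size factors), read minimum, fold limit and prior count.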

Additional observations from a re-analysis of the deposited data

How the results depend on the processing

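The count of members lower in RNA was 35 and lay between 24 and 36 over the alternatives, with 24 at a limit of 2-fold. Members lower in RPF went from 36 to 23 at 2-fold, and under the other alternatives lay between 29 and 36. At 2-fold, 8.35% of all genes were lower in RNA and 9.87% in RPF. No member was called higher in RNA or RPF under any alternative run. Members with lower TE went from 8 to 3 at a minimum of 200 reads, which leaves 39 members measured in both kinds, and to 4 at 2-fold. Members with higher TE went from 5 to 3 at 2-fold. Over all genes, 9.76% had lower TE at the 200-read minimum, and 6.28% had lower and 6.46% higher TE at 2-fold. The median RNA change lay between −0.998 and −0.902, the median RPF change between −0.964 and −0.957 and the median TE change between 0.04 and 0.08. No single-member value changed sign where it had been called. Scaling by total counts, DESeq2 size factors or TMM without the MTRNR2L and most abundant genes moved the median of all genes by at most 0.02. With 1 library per group no library could be left out, and no paired analysis was possible because each group has 1 sample. Depth limits GINS3, GINS4, POLE2 and LIG1, with 28, 26, 43 and 16 knockout-labelled RNA reads.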
